A study of Mus musculus with 15 samples.

Results

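The genes described here are 9 members of the NKT17 programme, the set of transcripts that marks the IL-17-producing subset of invariant natural killer T (iNKT) cells: Il23r, Il1r1, Il17re, Ccr6, Blk, Sdc1, Tmem176a, Tmem176b and Serpinb1a. They were taken by name from a list of symbols that was drawn up with earlier results of these data known, so the counts of members called are not independent of these data, and they are 9 of the 48795 genes listed in every sample. All 9 passed the filter on low counts that left 13600 genes for testing.

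The libraries were made from iNKT cells of wild-type C57BL/6 mice aged 6 weeks, sorted as cells that bound both a CD1d tetramer and TCRb antibody and lacked B220, CD11b, CD11c and CD8. RNA was sequenced from 15 samples in 4 tissues, with 4 samples each of thymus, spleen and mesenteric lymph node (mLN) and 3 of inguinal lymph node (iLN). No treatment, transgene or deletion separated the groups, the labels give the samples of each tissue the same unit numbers but do not say whether a unit is 1 mouse or a pool, and p-values measure the spread between these samples. The lymph nodes were digested with enzymes before sorting while a strainer alone was used for spleen and thymus, so tissue and digestion cannot be told apart in comparisons of lymph nodes with spleen or thymus, and iLN and mLN shared the digestion.

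NKT17 cells develop in the thymus and respond to IL-23 and IL-1 by making IL-17 without prior priming. In mice they are a small part of the iNKT cells of thymus and spleen and are known to be more common in peripheral lymph nodes, skin and lung. The sort did not separate NKT17 cells from the other iNKT subsets, so a level in these bulk samples depends both on the share of cells that carry a transcript and on the amount per cell, and fewer cells and less RNA per cell cannot be told apart.

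Total counts were between 1152702 and 8161474 in thymus, between 4919511 and 8670570 in spleen, between 4740370 and 7914302 in mLN and between 4080550 and 5360793 in iLN, with the lowest total in thymus replicate 2. There, 3 counts correspond to a level of 2.21 CPM (counts scaled to a common library size), against 0.296 to 0.826 CPM in the other 14 samples, so that a level of 0 in thymus replicate 2 allows more than elsewhere. Levels are given as CPM normalised by edgeR's TMM method. The 8 T cell and iNKT genes (Cd3d, Cd3e, Cd3g, Trac, Trbc1, Trbc2, Zbtb16 and Trav11) summed to between 2478 and 4201 CPM and were present in all samples, with the lowest sum in spleen replicate 1. That library also held the most B cell transcripts, with a sum of 129.4 CPM over 5 markers (Cd79a, Cd79b, Ms4a1, Pax5 and Cd22) against 2.10 to 19.1 CPM in the other 14 samples.

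Of the 9 genes, 7 had promoter sequence in the RefSeq table of GRCm38.p6 (windows from 250 bases before to 50 bases after a transcription start, 12 windows in all); Blk and Serpinb1a had no entry. Each window was searched on both strands for AGGTCA, the core of many nuclear receptor response elements, for the longer TAGGTCA, which contains it, and for TGANTCA, the AP-1 element. Il23r and Ccr6 held TAGGTCA, and the other 5 genes held neither of these forms. Among all 27025 genes in the table, 2.97% had TAGGTCA and 18.1% had AGGTCA in a window. TGANTCA was found in none of the 12 windows and in 8.97% of all genes. The 150 bases before the start are shown for Il23r (chr6:67491856-67492005, minus strand) and Ccr6 (chr17:8235893-8236042, plus strand), since they are the IL-23-sensing and the CCL20-sensing receptors of the programme and had the only such matches. Capitals mark TAGGTCA or its reverse complement TGACCTA.
Il23r: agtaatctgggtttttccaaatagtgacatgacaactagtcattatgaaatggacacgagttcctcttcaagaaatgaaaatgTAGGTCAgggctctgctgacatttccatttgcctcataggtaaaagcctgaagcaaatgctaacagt
Ccr6: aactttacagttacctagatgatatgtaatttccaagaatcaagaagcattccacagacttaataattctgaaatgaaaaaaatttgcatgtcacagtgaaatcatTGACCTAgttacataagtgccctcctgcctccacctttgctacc
The match began 67 bases before the start on the sense strand in Il23r and 44 bases before it, on the opposite strand, in Ccr6. A second AGGTCA lay 229 bases before the start of Il23r, outside the stretch shown. These matches are a description of the letters in these windows.

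**Figure D1:**
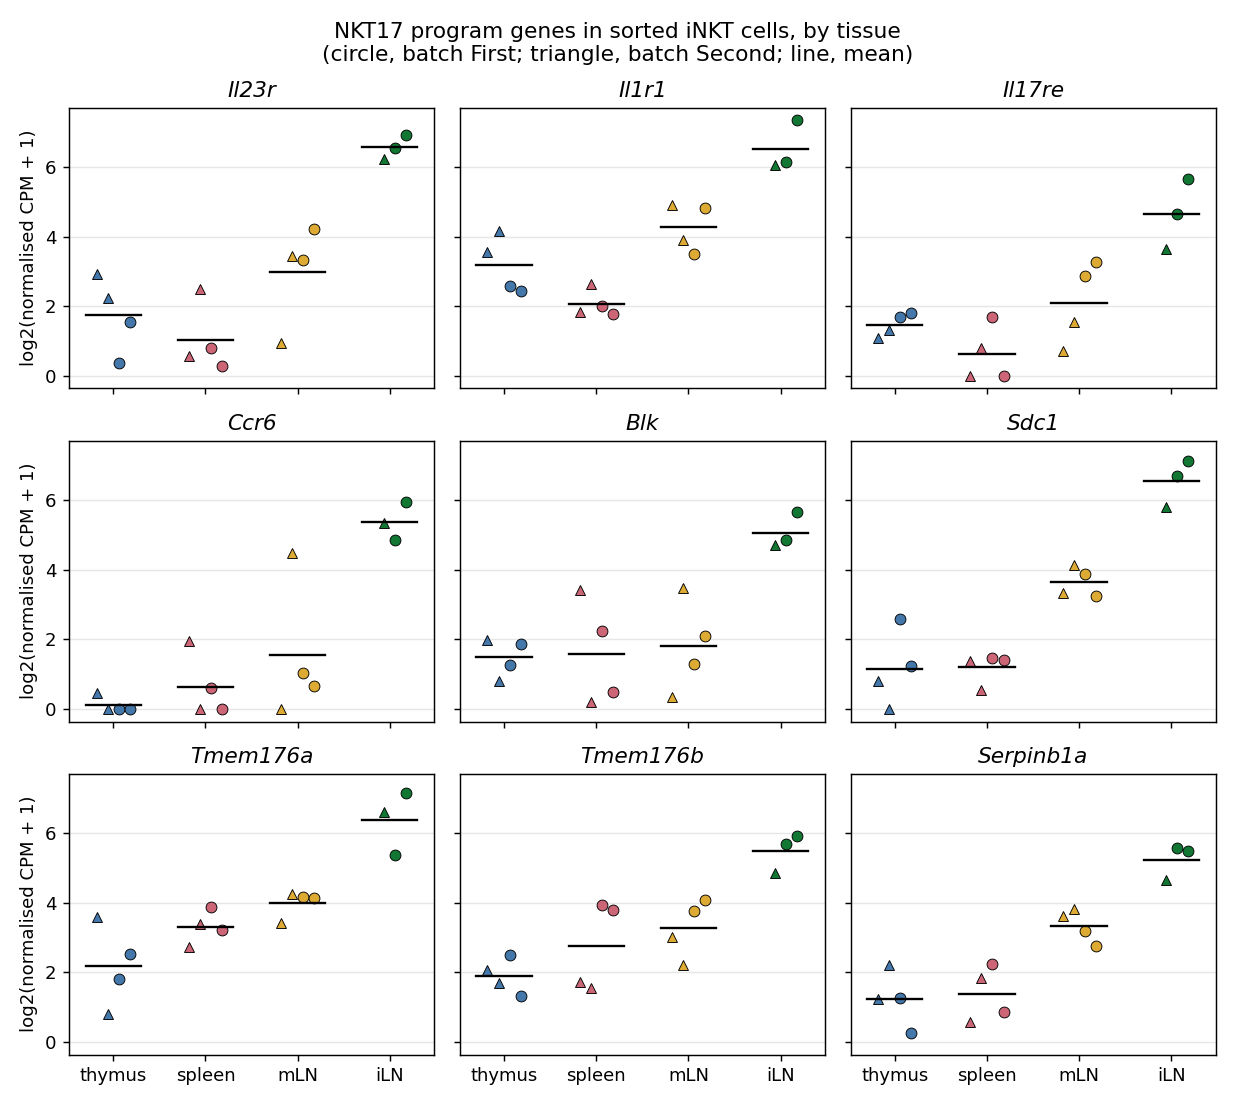
Normalised CPM of each of the 9 genes, as log2(CPM + 1), in every sample by tissue, with circles for batch First, triangles for batch Second and a line for the mean. In each panel the 3 iLN samples lie above all 12 samples of the other tissues.

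For each of the 9 genes the 3 iLN samples were higher than every sample of spleen, thymus and mLN, without overlap, as the plot of CPM by sample shows. Groups that do not overlap with iLN higher were found in 6.01% of all tested genes against spleen, in 6.21% against thymus and in 4.45% against mLN. Under edgeR's quasi-likelihood test with Benjamini-Hochberg adjustment, 8 of the 9 genes were higher in iLN than in spleen (all but Blk), where 0.963% of all tested genes were called in that direction at an adjusted p under 0.01 and a fold change over 1.5. Against thymus, 7 of the 9 genes were higher in iLN (all but Blk and Il17re), beside 0.875% of tested genes. Against mLN only Sdc1 passed, beside 0.316% of tested genes, and all 9 genes had an unadjusted p under 0.05, as had 13.8% of all tested genes. That count against mLN depended on the setting: it was 5 with DESeq2, 8 without the filter on low counts and 0 with a block for the replicate number, with only the 2 tissues, after thinning to the smallest library or with limma on log2(TPM + 0.1). Over single omissions it was 0 to 2, with 0 on leaving out iLN replicate 4, mLN replicate 1, 3 or 4, spleen replicate 3 or 4 or thymus replicate 4, and 2 without thymus replicate 1 or 2. The median log2 fold change of the 9 genes was 5.02 for iLN against spleen, 4.15 for iLN against thymus and 2.64 for iLN against mLN, beside medians of 0.0093, 0.026 and -0.00045 over all tested genes. The 3 comparisons share the iLN samples.

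Sdc1 and Il1r1 were higher in mLN than in spleen, beside 0.456% of tested genes called in that direction and 0.199% called as lower, and Sdc1 was higher in mLN than in thymus, beside 0.816%. The groups did not overlap for Sdc1, Il1r1 and Serpinb1a against spleen (3.04% of tested genes) and for Sdc1 and Serpinb1a against thymus (3.82%). For thymus against spleen edgeR called 0 of the 9 genes, where 0.779% of tested genes were called as higher in thymus and 0.537% as lower, and 0 of the 9 genes were higher in thymus without overlap, beside 4.33% of tested genes. Of the 9, 1 gene (Il1r1) had an unadjusted p under 0.05, beside 10.6% of all tested genes, and DESeq2 also called 0. In the joint test over the 4 tissues, 8 of the 9 genes (all but Blk) passed at an adjusted p under 0.01, beside 3.38% of tested genes.

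**Figure D2:**
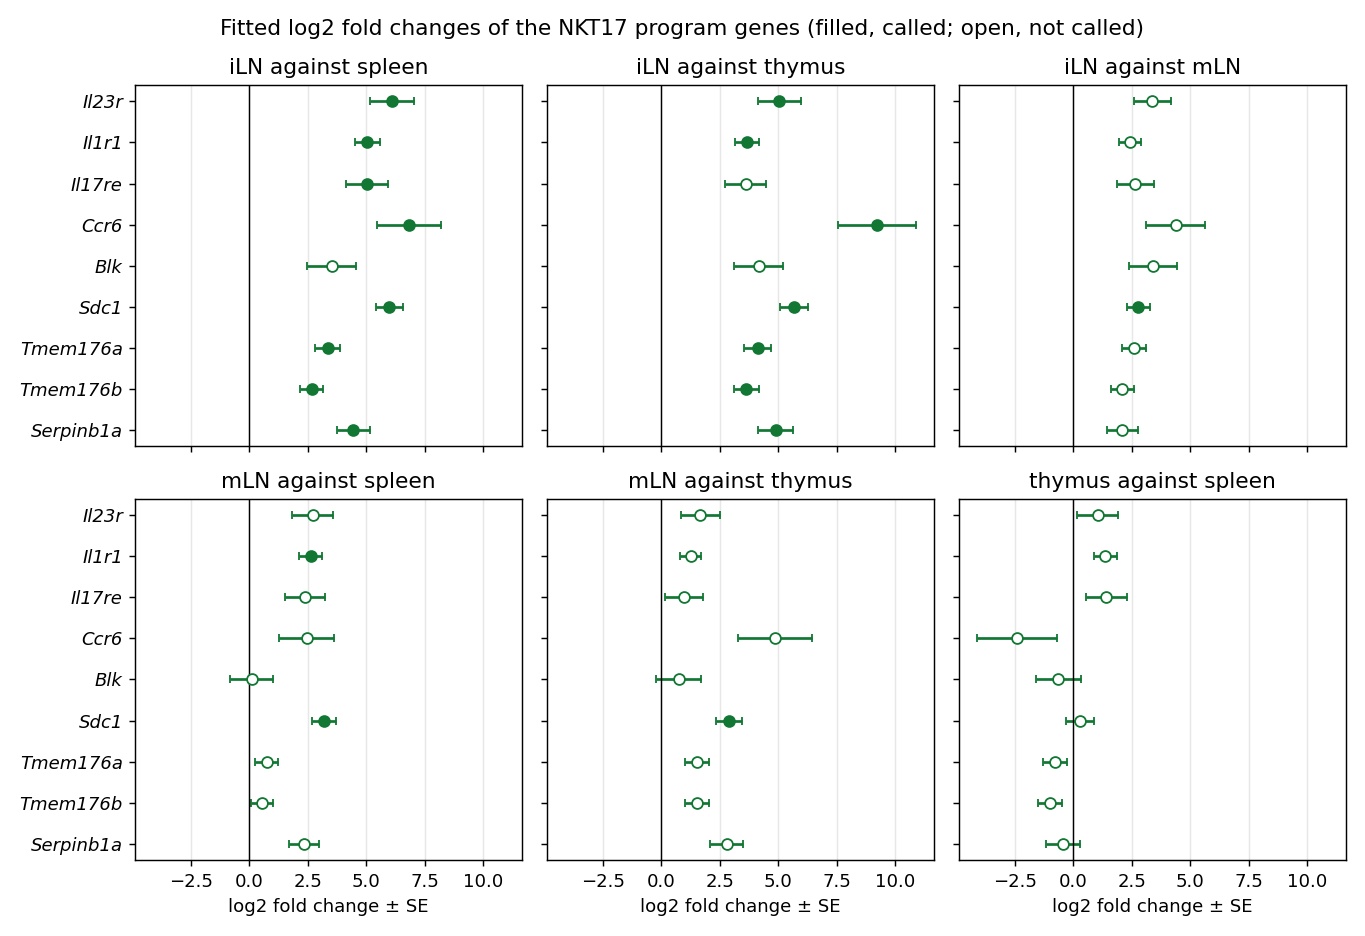
Fitted log2 fold change with its SE for the 9 genes in the 6 pairs of tissues, with filled points for genes called at an adjusted p under 0.01 and a fold change over 1.5 and open points for the rest. All points lie above 0 in the 3 panels of iLN and the 2 panels of mLN, and on both sides of 0 for thymus against spleen; the fitted value of Ccr6 against thymus, where 3 counts were found, depends on the prior count.

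Il23r encodes the specific chain of the IL-23 receptor, which pairs with the chain encoded by Il12rb1. The gene lies at chr6:67422932-67491855 on the minus strand (GRCm38, GENCODE). Its level was 74.1, 92.4 and 119.9 CPM in iLN replicates 2, 3 and 4. In mLN it was 0.908, 9.87, 8.95 and 17.7 CPM in replicates 1 to 4, in spleen 0.494, 4.66, 0.748 and 0.203 CPM, and in thymus 6.54, 3.68, 0.275 and 1.90 CPM. mLN replicate 1 was within the range of spleen, and spleen replicate 2 and thymus replicates 1, 2 and 4 were within the range of mLN. The means were 95.5 ± 23.1 CPM in iLN (SD, n = 3), 9.36 ± 6.88 in mLN, 3.10 ± 2.68 in thymus and 1.53 ± 2.10 in spleen (n = 4 each), and only iLN stood apart from its neighbour in this order. The log2 fold change of iLN was 6.08 ± 0.94 (SE) against spleen, with an adjusted p of 0.00088 (edgeR). Against thymus it was 5.05 ± 0.91, with an adjusted p of 0.00305 (edgeR). This call against thymus was lost on leaving out iLN replicate 4 or thymus replicate 2, 3 or 4 (adjusted p 0.00030 to 0.024 over the 15 single omissions, edgeR). A block for the replicate number removed it too (adjusted p 0.017, edgeR). The gene of its partner chain, Il12rb1, had 57.1 ± 4.50 CPM in iLN and 54.7 ± 12.7 CPM in spleen, with a log2 difference of 0.067 ± 0.27 and an adjusted p of 0.94 (edgeR).

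Il1r1 encodes the signalling receptor for IL-1 and lies at chr1:40225080-40317257 on the plus strand. It was at 65.3, 69.4 and 161.1 CPM in iLN replicates 2, 3 and 4. The mLN samples had 28.8, 13.9, 10.2 and 27.0 CPM, the spleen samples 2.57, 5.26, 2.99 and 2.44 CPM, and the thymus samples 10.9, 16.9, 4.96 and 4.36 CPM. All mLN samples were above all spleen samples, and thymus overlapped both. The log2 fold change of Il1r1 in iLN was 5.04 ± 0.53 against spleen, with an adjusted p of 1.37e-05 (edgeR), and 3.68 ± 0.51 against thymus, with an adjusted p of 0.00027 (edgeR); both calls were kept in each of the 15 single omissions and the 9 other settings tried. The rise in mLN against spleen was 2.61 ± 0.47, with an adjusted p of 0.0066 (edgeR), and it was less firm: the adjusted p ran from 0.0045 to 0.034 over the single omissions, and the call was lost without mLN replicate 1, 3 or 4, without any 1 of the 4 spleen samples or without thymus replicate 1, as it was with the replicate number as a block (adjusted p 0.011). Il1rap, the co-receptor of Il1r1, had 3.87 ± 2.23 CPM in iLN and 5.69 ± 2.29 CPM in spleen with a log2 difference of -0.55 ± 0.58 and an adjusted p of 0.72 (edgeR).

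Il17re encodes a receptor chain for IL-17C, which signals together with the product of Il17ra. It lies at chr6:113458484-113470758 on the plus strand, 669 bases from Il17rc. Il17re had the lowest mean CPM of the 9 genes in spleen, with 0, 0.751, 2.24 and 0 CPM in replicates 1 to 4. Thymus had 1.11, 1.47, 2.20 and 2.47 CPM, mLN 0.648, 1.89, 6.24 and 8.67 CPM, and iLN replicates 2, 3 and 4 had 11.48, 24.1 and 48.9 CPM. In mLN the pair from batch First was above the pair from batch Second. The log2 fold change of iLN against spleen was 5.02 ± 0.91, with an adjusted p of 0.0029 (edgeR), and the call was lost without iLN replicate 2 or 4 (adjusted p up to 0.0195 over the single omissions). This call was also lost with only the 2 tissues compared and after thinning to the smallest library. Against thymus the log2 fold change was 3.61 ± 0.87 and the adjusted p was 0.026 (edgeR), so it did not pass; DESeq2 called it. Il17ra was present in every tissue, from 115.7 ± 37.1 CPM in thymus to 230.2 ± 20.1 CPM in iLN.

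Ccr6 encodes the receptor for the chemokine CCL20 and lies at chr17:8236043-8257141 on the plus strand. iLN replicates 2, 3 and 4 had 39.7, 27.6 and 61.1 CPM. mLN had 0, 21.5, 1.04 and 0.578 CPM, so that replicate 2 held 148 of the 156 counts of mLN. Spleen had 2.86, 0, 0.498 and 0 CPM, with 29 of its 31 counts in replicate 1, the library with the most B cell transcripts. B cells are known to express Ccr6, and the sort removed cells with B220. In thymus there were 3 counts in all, each in replicate 1, and replicates 2, 3 and 4 were at 0. Over summed counts the ratio of iLN to thymus was 275 with a 95% exact interval of 93.9 to 1339 for counting error alone, and the adjusted p was 0.0029 (edgeR).

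Against spleen, the log2 fold change of Ccr6 in iLN was 6.82 ± 1.38, with an adjusted p of 0.0073 (edgeR). Without spleen replicate 1 the call was lost, and so it was without any other spleen or thymus sample, without iLN replicate 3 or 4 or without mLN replicate 3 or 4 (adjusted p 0.00084 to 0.034 over the 15 omissions). A block for the replicate number also removed the call (adjusted p 0.035, edgeR). The call against thymus was lost without iLN replicate 4 or without any 1 of the thymus samples (adjusted p up to 0.026). For mLN against spleen the log2 fold change was 2.45 ± 1.19, with an adjusted p of 0.42 (edgeR), and it was -0.65 without mLN replicate 2. The part of B cells in the spleen value was not tested.

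Blk encodes a Src family kinase of the B lineage that IL-17-producing gamma-delta T cells also carry, and lies at chr14:63372836-63417037 on the minus strand. Among the 9 genes it alone was not called in any comparison of the edgeR fit reported here. The iLN samples had 25.1, 27.6 and 49.4 CPM, the mLN samples 0.259, 10.01, 1.46 and 3.27 CPM, the spleen samples 9.57, 0.150, 3.74 and 0.407 CPM and the thymus samples 2.96, 0.735, 1.38 and 2.66 CPM. The highest mLN sample was again replicate 2, with 69 of the 95 counts of mLN. The highest spleen sample was again replicate 1, with 97 of the 115 counts of spleen. Spleen replicate 1 was the library with the most B cell transcripts. The B cell sum of mLN replicate 2 (6.12 CPM) was within the range of the other mLN samples. The part of B cells in the values of Blk was not tested. The log2 difference of iLN was 3.51 ± 1.03 against spleen, 4.15 ± 1.06 against thymus and 3.41 ± 1.02 against mLN, with adjusted p-values of 0.066, 0.036 and 0.11 (edgeR). DESeq2 called Blk against spleen and against thymus, as did edgeR without the filter on low counts, which also called it against mLN. With only the 2 tissues compared, edgeR called it against thymus. Over the 15 samples, the log2(CPM + 1) of Blk and Ccr6 had the highest correlation of any pair of the 9 genes, with Pearson's r of 0.931; the points share their libraries and the split between iLN and the rest.

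Sdc1 encodes syndecan-1, a heparan sulphate proteoglycan that is used as a surface marker of plasma cells and of NKT17 cells. It lies at chr12:8771323-8793715 on the plus strand. iLN replicates 2, 3 and 4 had 55.3, 101.9 and 137.3 CPM and mLN had 8.95, 16.4, 13.7 and 8.48 CPM. Spleen had 1.58, 0.451, 1.74 and 1.63 CPM, and thymus had 0.740, 0, 4.96 and 1.33 CPM. The order from iLN to mLN and from mLN to either other tissue held without overlap, and thymus and spleen overlapped. Sdc1 was the only member called in all 5 comparisons that hold a lymph node. The log2 fold change was 5.97 ± 0.58 for iLN against spleen, with an adjusted p of 9.29e-06 (edgeR), and 5.67 ± 0.58 for iLN against thymus, with an adjusted p of 1.13e-05 (edgeR). Both of these calls were kept in all 15 single omissions.

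In mLN, Sdc1 rose by 3.19 ± 0.53 on the log2 scale against spleen and by 2.89 ± 0.55 against thymus, with adjusted p-values of 0.0037 and 0.0042 (edgeR). The first was lost without mLN replicate 3 or spleen replicate 2, 3 or 4 (adjusted p up to 0.020), and the second without mLN replicate 2 or 3 or thymus replicate 1, 2 or 4 (adjusted p up to 0.035). The rise of 2.78 ± 0.50 in iLN against mLN, with an adjusted p of 0.0067 (edgeR), was lost in 9 of the 15 omissions: any iLN sample, mLN replicate 1, 3 or 4, spleen replicate 3 or 4 or thymus replicate 4 (adjusted p up to 0.044). It was also lost with the replicate number as a block (adjusted p 0.012). The summed level of 5 other plasma cell genes (Jchain, Tnfrsf17, Ighm, Igkc and Derl3) was 182.8 to 232.7 CPM in iLN, 166.4 to 214.6 CPM in mLN, 218.0 to 294.6 CPM in spleen and 94.8 to 200.9 CPM in thymus, and Tnfrsf17 was at 0 in all samples. The 3 of these genes that were tested had a median log2 difference of 0.68 in iLN against thymus, and their part in the values of Sdc1 was not tested.

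Tmem176a and Tmem176b encode related membrane proteins of intracellular vesicles that are abundant in IL-17-producing lymphocytes. The pair lies head to head on chr6, with Tmem176a at chr6:48840919-48847071 on the plus strand and Tmem176b at chr6:48833818-48841496 on the minus strand, and the annotated transcripts overlap at their 5′ ends. Strand in the counting is not given in the sources used here, so reads from the overlap cannot be assigned to either gene with certainty. Tmem176a had 96.7, 40.4 and 142.1 CPM in iLN replicates 2, 3 and 4, 9.60, 17.99, 17.1 and 16.6 CPM in mLN, 5.63, 9.47, 13.7 and 8.34 CPM in spleen and 10.98, 0.735, 2.48 and 4.74 CPM in thymus. Tmem176b had 27.8, 50.4 and 59.7 CPM in iLN, 7.13, 3.63, 12.5 and 16.0 CPM in mLN, 2.27, 1.95, 14.2 and 12.8 CPM in spleen and 3.21, 2.21, 4.68 and 1.52 CPM in thymus. The pair did not rank the iLN samples alike: replicate 3 was the lowest of the 3 for Tmem176a and the middle for Tmem176b. In spleen, Tmem176b was higher in the 2 samples of batch First than in the 2 of batch Second.

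Against spleen, iLN was higher by 3.34 ± 0.53 on the log2 scale for Tmem176a and by 2.66 ± 0.50 for Tmem176b, with adjusted p-values of 0.0011 and 0.0041 (edgeR). The call of Tmem176a was lost without iLN replicate 4 (adjusted p 0.00026 to 0.012 over the omissions), and that of Tmem176b without any 1 of the iLN samples or spleen replicate 1, 2 or 4 (adjusted p 0.0020 to 0.023). Both limma fits also removed the call of Tmem176a. That of Tmem176b was also lost with limma on log2(TPM + 0.1), without the batch term or after thinning to the smallest library. Against thymus the values were 4.12 ± 0.57 and 3.64 ± 0.55, with adjusted p-values of 0.00022 and 0.00053 (edgeR), and both calls were kept in all 15 omissions and the 9 other settings. Between mLN and spleen the log2 differences were 0.73 ± 0.49 and 0.55 ± 0.47, with adjusted p-values of 0.61 and 0.71 (edgeR).

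Serpinb1a encodes an intracellular inhibitor of neutrophil serine proteases and lies at chr13:32842092-32851185 on the minus strand. It was at 24.4, 46.9 and 43.6 CPM in iLN replicates 2, 3 and 4 and at 11.3, 13.1, 8.11 and 5.78 CPM in mLN. Spleen had 0.494, 2.55, 3.74 and 0.813 CPM, and thymus had 1.36, 3.68, 1.38 and 0.190 CPM. All mLN samples were above all samples of spleen and thymus. iLN was higher by 4.43 ± 0.71 on the log2 scale against spleen and by 4.88 ± 0.77 against thymus, with adjusted p-values of 0.0011 and 0.00079 (edgeR), and both calls were kept in all 15 omissions. Thinning to the smallest library removed both (adjusted p 0.061 and 0.062, edgeR). The log2 differences of mLN were 2.34 ± 0.65 against spleen and 2.79 ± 0.70 against thymus, with adjusted p-values of 0.089 and 0.033 (edgeR), and DESeq2 called both. The close paralogs Serpinb1b and Serpinb1c were listed at 0 in all 15 samples.

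**Figure D3:**
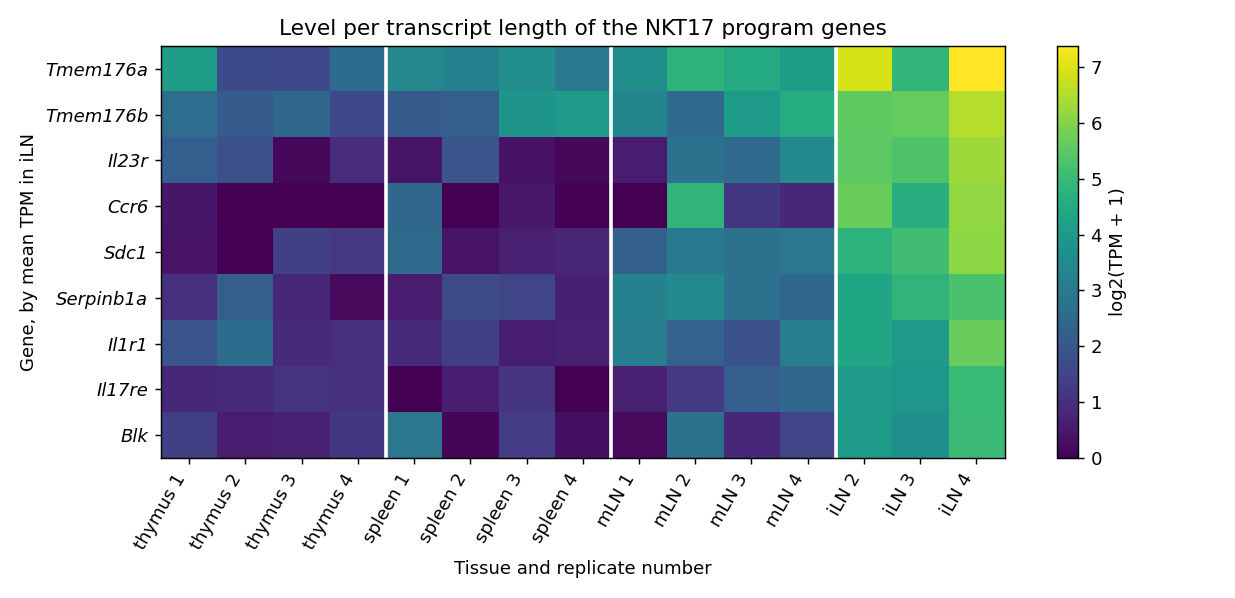
Level per transcript length, as log2(TPM + 1), of the 9 genes in the 15 samples, with genes in the order of their mean TPM in iLN and white lines between tissues. iLN is highest for 8 of the 9 genes without overlap, Tmem176a has the highest mean in each tissue, and Ccr6 in mLN replicate 2 (27.6 TPM) lies above its lowest iLN sample (24.4 TPM).

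Levels were compared between genes as TPM, RSEM's transcript abundance scaled by transcript length and to a common sum. By mean TPM in iLN, the order was Tmem176a (104.7 ± 70.1, SD, n = 3), Tmem176b (62.2 ± 26.5), Il23r (54.0 ± 20.2), Ccr6 (48.5 ± 23.4), Sdc1 (42.8 ± 22.6), Serpinb1a (28.1 ± 8.82), Il1r1 (28.0 ± 19.2), Il17re (20.2 ± 9.19) and Blk (19.8 ± 10.7). Each neighbouring pair in this order overlapped between samples. On this scale 8 of the 9 genes kept iLN apart from all other samples, and Ccr6 did not, since mLN replicate 2 was at 27.6 TPM and iLN replicate 3 at 24.4 TPM. Tmem176a and Tmem176b also led in thymus (6.41 ± 6.77 and 3.82 ± 1.37 TPM), spleen (9.27 ± 1.77 and 8.96 ± 6.40 TPM) and mLN (18.8 ± 6.40 and 12.9 ± 7.79 TPM). The last place changed between tissues, from Ccr6 in thymus (0.0875 ± 0.175 TPM) to Il17re in spleen (0.423 ± 0.544 TPM) and Blk in mLN and iLN. Sdc1 in spleen replicate 1 was at 4.88 TPM against 0.300 to 0.740 TPM in the other spleen samples, although its CPM there was within their range, and with limma on log2(TPM + 0.1) its call for iLN against spleen was lost.

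Summed over the 9 genes, iLN replicates 2, 3 and 4 reached 419.9, 480.6 and 823.2 CPM. mLN had 67.6 to 108.2 CPM, spleen 25.2 to 43.6 CPM and thymus 19.2 to 38.1 CPM. iLN replicate 4 was the highest of the 15 samples for 8 of the 9 genes (all but Serpinb1a). Without it, 4 of the 9 genes were called for iLN against spleen in place of 8 (Il23r, Il1r1, Sdc1 and Serpinb1a), 5 against thymus in place of 7 and 0 against mLN in place of 1.

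The direction was the same in both batches for all 9 genes in the iLN comparisons and in mLN against spleen. With the samples of batch First alone (2 of each tissue), the difference of the mean log2(CPM + 1) of iLN and spleen was between 1.95 and 6.20 over the 9 genes, and with batch Second alone (1 iLN sample and 2 of spleen) it was between 2.90 and 4.86. For iLN and mLN the ranges were 1.88 to 4.55 and 0.951 to 4.04, all above 0. mLN was above spleen for all 9 genes in both batches, and above thymus for 9 genes in batch First and 7 in batch Second, where Il23r and Il17re were lower in mLN. Thymus was above spleen for 5 genes in each batch, and Blk, Sdc1, Tmem176b and Serpinb1a changed direction between the batches. Such within-batch values rest on 1 or 2 samples a tissue and were given no test.

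**Figure D4:**
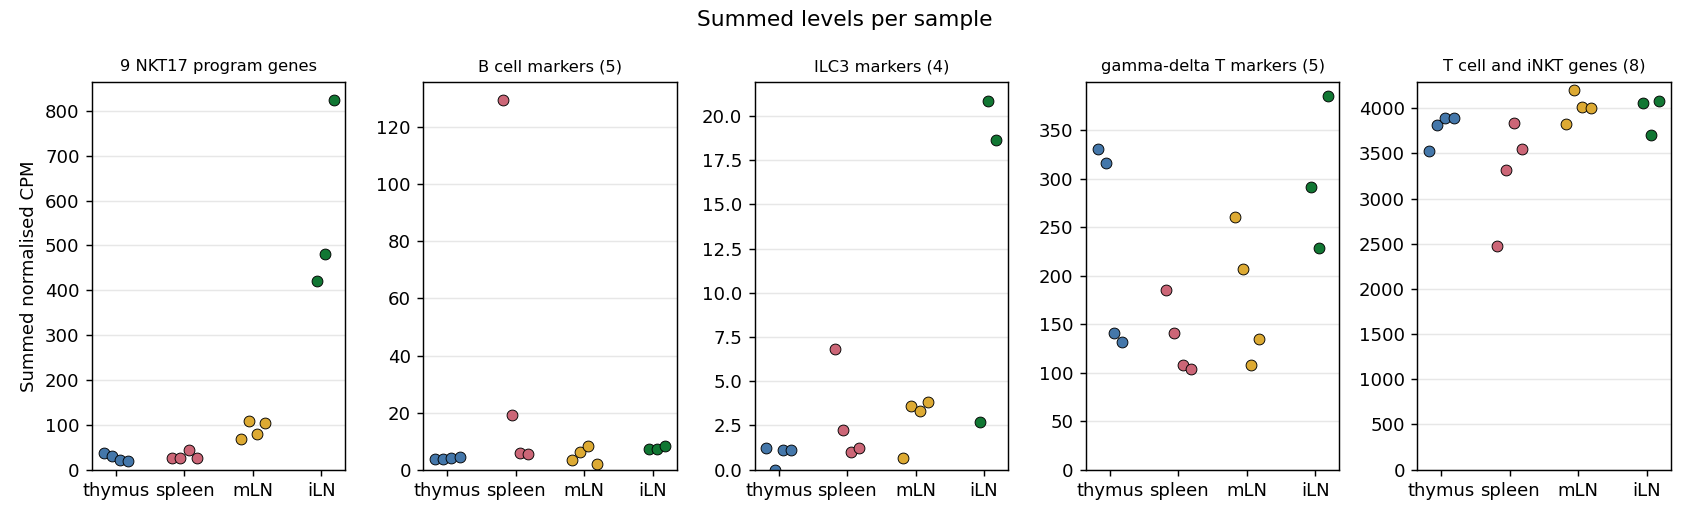
Summed normalised CPM per sample by tissue for the 9 genes and for 4 lists of marker genes, each axis from 0. The 9 genes are highest in the 3 iLN samples, the B cell sum is highest in spleen replicate 1 and the ILC3 sum is highest in iLN replicates 3 and 4.

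Other IL-17-competent lymphocytes share much of this programme, so their markers were read beside it, as the plot of summed levels shows, although the sort required TCRb and tetramer binding, which gamma-delta T cells and innate lymphoid cells lack. Of the 5 gamma-delta T cell genes (Trdc, Tcrg-C1, Trdv4, Sox13 and Cd163l1), Trdv4 was at 0 in all samples and Trdc, the constant region of the delta chain, was between 0 and 0.179 CPM in iLN and up to 7.78 CPM in mLN. The summed level of the 5 was 228.3 to 385.4 CPM in iLN, 108.2 to 260.1 CPM in mLN, 104.2 to 185.2 CPM in spleen and 132.0 to 330.7 CPM in thymus, and Tcrg-C1 gave most of it. Of the 3 genes of this list that were tested, Tcrg-C1 and Sox13 were called as higher in iLN than in spleen. Tcrg-C1 was higher by 1.23 ± 0.23 on the log2 scale with an adjusted p of 0.0034 (edgeR), and the call was lost without iLN replicate 4 or spleen replicate 2, 3 or 4. The 4 markers of type 3 innate lymphoid cells (Kit, Il22, Ncr1 and Cxcr5) summed to 2.69, 20.9 and 18.6 CPM in iLN replicates 2, 3 and 4, against 0 to 6.81 CPM elsewhere. Kit held 15.7 CPM in iLN replicate 4 and 0 in the other iLN samples, and Il22 was at 0 in iLN. Cxcr5 held 18.7 CPM in iLN replicate 3, so different genes gave most of the sum in replicates 3 and 4. The sum in iLN replicate 2 was within the range of the other tissues. B cell markers summed to 7.08 to 8.16 CPM in iLN, and Cd8a and Cd8b1, which the sort removes, to 1.59 to 7.10 CPM there. The part of such cells in the levels was not tested.

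The other genes of the pathway were read from a list of 35 symbols, of which 1 (Scart1) is a synonym of another; 25 passed the filter. Of these, 8 were higher and 0 lower in iLN than in spleen, beside 0.963% and 0.588% of all tested genes. In iLN against thymus 6 were higher and 0 lower, beside 0.875% and 0.625%, and in iLN against mLN 4 were higher and 0 lower, beside 0.316% and 0.154%. Their median log2 fold changes were 1.28, 1.02 and 0.72, beside 0.0093, 0.026 and -0.00045 over all tested genes. In mLN against spleen 1 was higher and 0 lower, beside 0.456% and 0.199%, and in mLN against thymus 4 were higher and 2 lower, beside 0.816% and 0.779%. Thymus against spleen had 2 higher and 1 lower, beside 0.779% and 0.537%. Several of these calls were fragile: of the 15 single omissions, 12 removed the call of Il17ra in iLN against thymus, 11 that of Il6ra and 10 that of Ramp1 in iLN against spleen, and 8 that of Il18r1, which was lower in mLN than in thymus.

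Among the transcription factors of the list, Sox13, a factor of IL-17-producing gamma-delta T cells, rose by 4.30 ± 0.75 in iLN against spleen, with an adjusted p of 0.0023 (edgeR); the call was lost without iLN replicate 2 or spleen replicate 1 or 4. Maf rose in iLN against spleen, thymus and mLN, by 0.91 ± 0.17, 1.20 ± 0.18 and 1.002 ± 0.18, with adjusted p-values of 0.0047, 0.00041 and 0.0047 (edgeR). Its calls against spleen and mLN were lost without iLN replicate 4, without spleen replicate 1, 3 or 4 for the first and without mLN replicate 2, 3 or 4 for the second.

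Rora and Ahr followed other patterns. Rora, a nuclear receptor of IL-17-producing cells, had 345.2 ± 52.9 CPM in spleen, 254.1 ± 59.5 in mLN and 360.9 ± 90.8 in iLN against 71.8 ± 16.3 in thymus. It was lower in thymus than in spleen by a log2 fold change of -2.27 ± 0.18, with an adjusted p of 3.24e-07 (edgeR), and iLN and spleen differed by 0.15 ± 0.18, with an adjusted p of 0.77 (edgeR). Ahr, the aryl hydrocarbon receptor, was higher in thymus than in spleen by 2.72 ± 0.46, with an adjusted p of 0.0017 (edgeR), and the call was lost without thymus replicate 1.

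**Figure D5:**
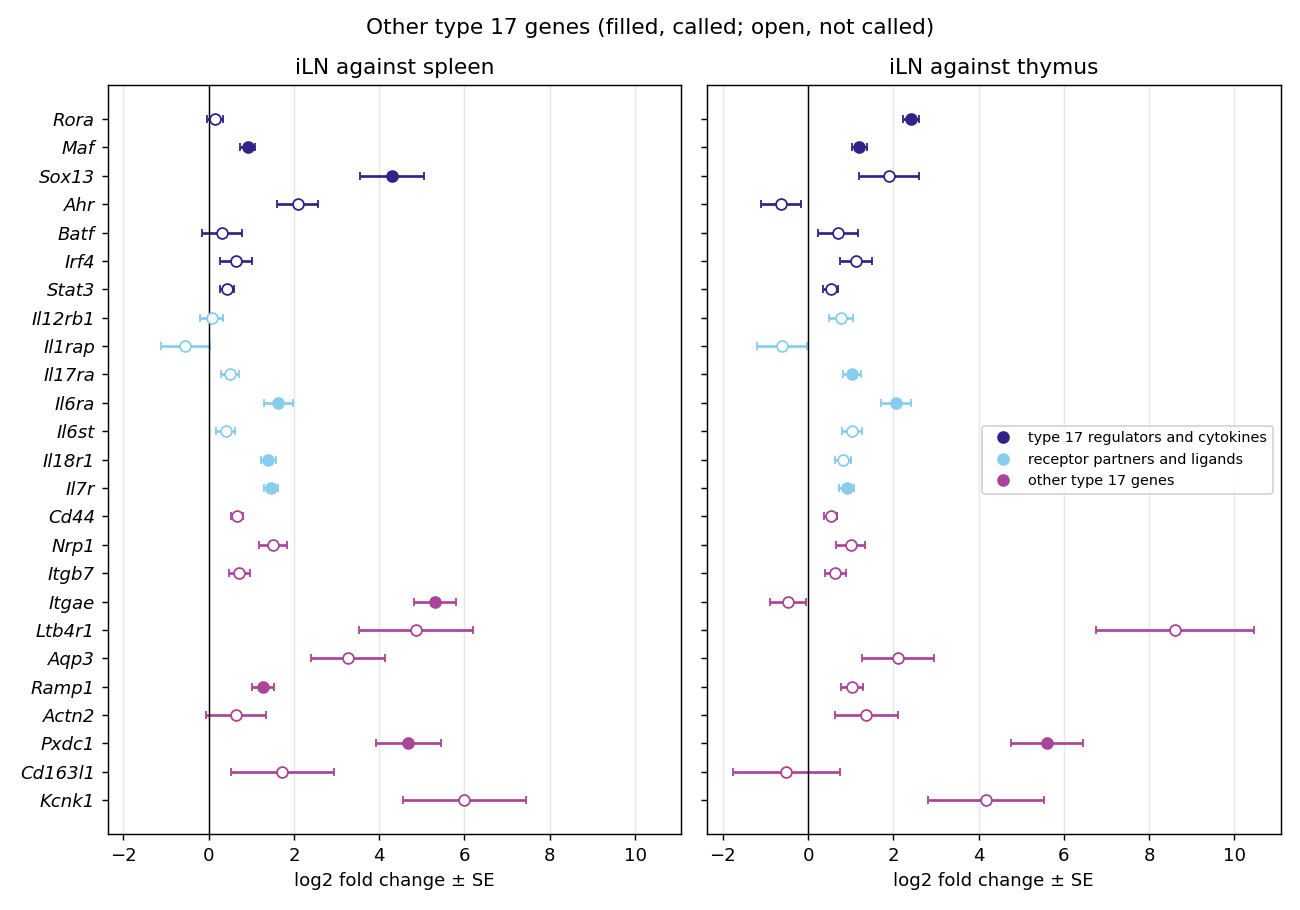
Fitted log2 fold change with its SE for the 25 other pathway genes that passed the filter, in iLN against spleen and in iLN against thymus, with filled points for genes called and open points for the rest. Of the 25, 24 lie above 0 against spleen and 21 against thymus, and Maf, Il6ra, Il7r and Pxdc1 are filled in both panels; Ltb4r1 was at 0 in all thymus samples, so that its fitted value there depends on the prior count.

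Il17a had 5 counts over 2 of the 15 samples (iLN replicate 3 and thymus replicate 3), Il22 had 7 counts in 1 sample, and Il17f had at most 5.44 counts in a sample. The ligand genes Il23a and Ccl20 were listed at 0 in all 15 samples, where the 3 counts that a 0 allows correspond to 0.296 to 2.21 CPM.

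Among the other receptors, Il7r and Il18r1, the receptors for IL-7 and IL-18, rose in iLN. Il7r was higher by 1.47 ± 0.17 against spleen, 0.90 ± 0.17 against thymus and 1.18 ± 0.17 against mLN, with adjusted p-values of 3.06e-05, 0.0038 and 0.00061 (edgeR); the call against thymus was lost without iLN replicate 4 or thymus replicate 2, 3 or 4. Il18r1 was higher by 1.40 ± 0.18 against spleen and 1.65 ± 0.18 against mLN, with adjusted p-values of 0.00012 and 6.21e-05 (edgeR). Il6ra, the IL-6 receptor chain, was higher in mLN and in iLN than in thymus, by 1.66 ± 0.33 and 2.06 ± 0.35, with adjusted p-values of 0.0061 and 0.0017 (edgeR), and Il6st, its partner, was higher in mLN than in thymus by 1.32 ± 0.22, with an adjusted p of 0.0013 (edgeR). The calls of Il6ra were lost without mLN replicate 2 or 3 or any 1 of the thymus samples for mLN, and without iLN replicate 2 or thymus replicate 1 or 3 for iLN.

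Of the surface genes, Itgae, the integrin chain that binds E-cadherin, was high in thymus (262.1 ± 38.8 CPM) and iLN (200.1 ± 32.7) and low in mLN (13.98 ± 12.02) and spleen (4.44 ± 2.77). It was higher in iLN than in mLN by 3.85 ± 0.45, with an adjusted p of 0.00011 (edgeR), and differed by -0.47 ± 0.42 between iLN and thymus, with an adjusted p of 0.62 (edgeR). Nrp1, neuropilin-1, had 77.1 ± 25.8 CPM in mLN and 47.2 ± 11.996 CPM in iLN, which overlapped, against 17.5 ± 5.24 in spleen and 25.5 ± 9.69 in thymus. For mLN against spleen and thymus it had log2 fold changes of 2.18 ± 0.31 and 1.67 ± 0.31 and adjusted p-values of 0.0012 and 0.0035 (edgeR), and iLN against mLN gave -0.67 ± 0.32 with an adjusted p of 0.38 (edgeR). The call against thymus was lost without mLN replicate 3 or thymus replicate 1, 3 or 4. Pxdc1 followed the 9 genes, with 93.6 ± 64.2 CPM in iLN, 13.1 ± 7.99 in mLN, 3.498 ± 2.41 in spleen and 1.84 ± 1.02 in thymus, and its call against spleen was lost without iLN replicate 4.

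Genes of the NKT1 subset were read beside the programme. Of 9 tested NKT1 genes, 3 were lower in iLN than in spleen (Ccl5, Klrb1c and Nkg7), beside 0.588% of tested genes called as lower. Against thymus 4 were lower in iLN (Klrb1c, Klrk1, Nkg7 and Xcl1), beside 0.625%. A decrease was not particular to iLN: 3 were lower in mLN than in spleen (Ccl5, Klrb1c and Klrk1), beside 0.199%. In mLN against thymus 3 were lower (Klrb1c, Klrk1 and Nkg7), beside 0.779%, and 1 was higher (Ccl5), beside 0.816%. Nkg7, a protein of cytotoxic granules, was at 57.8 ± 31.4 CPM in iLN and 190.6 ± 28.2 CPM in spleen, and Klrb1c, the NK1.1 receptor, at 162.8 ± 28.7 and 313.0 ± 48.7 CPM. Against mLN 1 NKT1 gene was higher in iLN: Klrk1, the NKG2D receptor, by 1.52 ± 0.20 on the log2 scale with an adjusted p of 0.00033 (edgeR), beside 0.316% of tested genes called as higher, and 0 were lower. The call of Klrb1c in iLN against spleen was lost without iLN replicate 3 or 4 or spleen replicate 2, 3 or 4. That of Xcl1 was lost without iLN replicate 2 or 3 or thymus replicate 1 or 3. In mLN, the calls of Ccl5 and Klrb1c against spleen were lost in 6 and 9 of the 15 single omissions. That of Ccl5 against thymus was lost in 7. Of 5 tested NKT2 genes (Gata3, Il4, Il13, Zbtb16 and Il17rb), 0 were called in the iLN comparisons. There, 0.316% to 0.963% of tested genes were called as higher in iLN and 0.154% to 0.625% as lower. Il17rb was higher in mLN than in thymus, beside 0.816%, with an adjusted p of 0.0070 (edgeR), and 9 of the 15 omissions removed this call.

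The genes most like the 9 in their pattern were sought among 10136 tested genes with a mean of at least 5 CPM, by Pearson's r over the 15 samples with the mean standardised log2(CPM + 1) of the 9 genes. The 5 highest were Igf1r (r = 0.942), Pxdc1 (0.941), Coro2b (0.932), Mmp25 (0.923) and Cysltr1 (0.9195). The samples share their libraries and fall into iLN and the rest, so r mostly describes that split. Igf1r, the receptor for insulin-like growth factor, was at 203.1, 188.0 and 191.2 CPM in iLN replicates 2, 3 and 4 and at 17.9 to 65.1 CPM in mLN, 7.53 to 14.5 CPM in spleen and 4.81 to 15.4 CPM in thymus. Coro2b, an actin-binding coronin, had means of 58.8 CPM in iLN, 5.45 in mLN, 3.74 in spleen and 4.17 in thymus, and Mmp25, a membrane-anchored matrix metalloproteinase, had means of 54.9, 5.63, 0.953 and 2.15 CPM in the same order. Cysltr1, a cysteinyl leukotriene receptor, was at 29.4, 18.2 and 56.8 CPM in iLN replicates 2, 3 and 4 and at 4.05 to 9.29 CPM in mLN, 1.503 to 4.49 CPM in spleen and 0 to 1.65 CPM in thymus. Ranked by Spearman's rho, 3 of these 5 (Cysltr1, Igf1r and Pxdc1) were among the first 5.

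Among the 9 genes themselves, Pearson's r of log2(CPM + 1) over the 15 samples was between 0.621 (Blk and Tmem176b) and 0.931, with a median of 0.796 over the 36 pairs. Without the iLN samples it was between -0.122 and 0.773 over the remaining 12, with a median of 0.403.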

How the data were processed

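RNA from sorted iNKT cells was sequenced by the authors as paired-end reads. They trimmed with Cutadapt 1.7.1 and quantified with RSEM 1.2.31 and Bowtie2 2.2.9 (versions per the submitters' processing notes) on GRCm38.p6; the annotation release and use of strand are not given in the sources used here. The expected counts that the authors deposited are RSEM's estimates of fragments per gene, without normalization, in which reads shared by several genes are split. The TPM that the authors deposited are scaled by effective length and to a common sum. The FPKM that the authors deposited were not used. iLN replicate 1 was not analysed here.

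Expected counts were rounded, filtered with filterByExpr by tissue, normalised by TMM and fitted with edgeR 4.0.16 (quasi-likelihood, robust; R 4.3.3) with tissue and batch in 1 model of all 15 samples. Calls needed a p under 0.01 after Benjamini-Hochberg adjustment over all 13600 genes and a fold change over 1.5, and in the joint test of 4 tissues at the adjusted p alone. Fold changes are given with their SE from the model. The edgeR fit was tested on simulated counts. Depth limits genes near 0, and intervals and the limit of 3 counts cover counting error alone. Alternatives were DESeq2 1.42.0, limma 3.58.1 on log2(TPM + 1) and log2(TPM + 0.1), RLE normalization, no filter, no batch term, the replicate number as a block, only the 2 tissues compared, libraries thinned to the smallest, and omission of each library. Promoters came from RefSeq tables of GRCm38.p6 and gene positions from GENCODE on GRCm38. Tables and plots were made in Python 3.11.15 (matplotlib 3.10.9, scipy 1.17.1, pandas 2.3.3).

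The members and gene lists were chosen with earlier results of these data known. Genes named were the 9 members, list genes called in any pair of tissues, Il17a and Il12rb1, and the 5 genes with the most similar pattern. Markers, other list genes at 0 and genes named as not called were added after their values were seen. Some genes of the lists are not reported here.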

Additional observations from a re-analysis of the deposited data

Results flagged for a closer look

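In all, 5 of 27 groups of 4 samples held a sample far from the other 3, by Dixon's criterion at 95%, which chance meets in about 1 of 20 groups of normally distributed values. Counts near 0 are not so distributed, and with 3 samples at 0 any count is far from the rest, so the 5 cannot be read against that rate. Il23r in spleen was at 4.66 CPM in replicate 2 and between 0.203 and 0.748 CPM in the others. Ccr6 in thymus was at 0.370 CPM in replicate 1, from 3 counts, and at 0 in the others. Ccr6 in mLN was at 21.5 CPM in replicate 2 and between 0 and 1.04 CPM in the others. Sdc1 in spleen was at 0.451 CPM in replicate 2 and between 1.58 and 1.74 CPM in the others. Tmem176a in mLN was at 9.60 CPM in replicate 1 and between 16.6 and 17.99 CPM in the others.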

How the results depend on the processing

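The number of the 9 genes called stayed at 0 for thymus against spleen under all alternatives. For iLN against spleen it was 8 and for iLN against thymus 7, and it became 4 against spleen with limma on log2(TPM + 0.1) and 4 with libraries thinned to the smallest. With DESeq2 or without the filter all 9 were called in both comparisons. Against thymus the count was 5 to 9 over all alternatives. Without 1 library in turn it was 4 to 8 against spleen and 5 to 7 against thymus. For mLN against spleen, 2 became 0 with limma on log2(TPM + 0.1) or log2(TPM + 1), without the batch term, with only the 2 tissues or after thinning, and 4 without the filter; single omissions gave 0 to 2. For mLN against thymus, 1 became 2 with DESeq2, 4 without the filter and 0 with either limma fit, without the batch term, with only the 2 tissues or after thinning; single omissions gave 0 to 1. For iLN against mLN, 1 became 5 with DESeq2, 8 without the filter, and 0 with limma on log2(TPM + 0.1), with only the 2 tissues or after thinning; single omissions gave 0 to 2. The cause was not tested, except that thinning and the fits on 2 tissues use fewer reads or samples.

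The labels do not say whether samples with the same number come from the same animal, and the numbers were not taken as a pairing. The authors used a paired t-test to compare T cell receptor clone frequencies of the RNAseq samples between tissues. For samples with the same number, the correlation of deviations from the tissue means was 0.114 on average over 21 pairs (lowest 0.0039). It was 0.0988 for other samples of the same batch. Once centred on tissue and batch it was between 0.0025 and 0.0524 over 18 pairs with the same number. Other samples of the same batch then had -0.0524 to -0.0025, which mirrors these values because each centred group held 2 samples. With the replicate block, 1 gene was called for mLN against spleen, 0 for iLN against mLN, 7 for iLN against spleen and 6 for iLN against thymus; it removed the calls of Il1r1, Sdc1, Ccr6 and Il23r in these comparisons in that order and, in pairs of tissues, of no other member.

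Directions turned for 7 log2 differences, none of them called. With limma on log2(TPM + 0.1), thymus against spleen became 0.19 for Blk and -0.86 for Sdc1, which was also -0.34 with limma on log2(TPM + 1) and -0.87 after thinning. Thinning gave mLN against spleen -0.072 for Blk and -0.47 for Tmem176b. Over single omissions, thymus against spleen ran from -1.04 to 0.69 for Blk (above 0 without spleen replicate 1), -0.60 to 0.63 for Sdc1 (below 0 without thymus replicate 3) and -0.89 to 0.20 for Serpinb1a (0.20 without spleen replicate 3, 0.03 without thymus replicate 4). For mLN against spleen it ran from -0.65 to 4.49 for Ccr6 (below 0 without mLN replicate 2) and from -1.20 to 1.55 for Blk (-1.20, -0.31 and -0.25 without mLN replicate 2, spleen replicate 2 and spleen replicate 4), and for mLN against thymus from -0.43 to 1.12 for Blk (below 0 without mLN replicate 2). Over all genes, calls ranged from 59 to 588 for iLN against spleen (211 as reported) and from 20 to 307 for iLN against mLN (64 as reported).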
